A study of Homo sapiens with 8 samples.

Results

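The TGF-β ligand and receptor genes are *TGFB1*, *TGFB2*, *TGFB3*, *TGFBR1*, *TGFBR2*, *TGFBR3*, *ACVRL1* and *ENG*, 8 of the 20136 protein-coding genes of the annotation used. A ChIP-Seq peak was assigned to a gene when its summit, the position of highest enrichment, lay in the gene body or within 100 kb of any annotated transcriptional start site (TSS) of that gene. By this rule the 8 windows covered 2079 kb of hg19. HoxC5 is a homeodomain transcription factor, and Pbx4 belongs to the TALE homeodomain proteins that bind DNA together with Hox proteins. All libraries were from PC-3, an established human prostate cancer cell line. Endogenous HoxC5 was pulled down from cells that were not modified, using an antibody to HoxC5 (replicates 1 and 2). The same antibody was used on cells given Flag-tagged HoxC5 by lentivirus (1 library, overexpressed HoxC5), and an antibody to Pbx4 on cells given Flag-tagged Pbx4 (1 library, overexpressed Pbx4). Neither overexpression was repeated, so a difference between those libraries has no replicate check, and protein, antibody and library cannot be told apart. The antibody to HoxC5 does not separate the tagged from the cell's own HoxC5. The 4 input libraries were not used here, no expression was analysed, and no test was made on any value below.

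The TGF-β ligands (*TGFB1*, *TGFB2* and *TGFB3*) are secreted in a latent form and, once released, bind the type II receptor TGFBR2. TGFBR2 then phosphorylates a type I receptor, TGFBR1 in most cells or ACVRL1 (ALK1), best known from endothelium, and the type I receptor phosphorylates SMAD proteins that enter the nucleus. TGFBR3 (betaglycan) and ENG (endoglin) are co-receptors that present ligand, and betaglycan is known for its strong binding of TGFB2. In epithelial tumours the pathway is known both for growth arrest and for epithelial-mesenchymal transition.

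The 4 lists differed greatly in length, so counts are read against those of all protein-coding genes. Replicate 1 held 2525 peaks, replicate 2 held 170, the overexpressed HoxC5 list 67196 and the Pbx4 list 153620. The highest q-values in these lists were 0.0398, 0.0499, 0.00997 and 0.0490. The overexpressed HoxC5 list thus ended at a stricter q-value than the others, which also bears on its length and overlaps. A peak had a median of 17 reads at its summit in replicate 1, 32 in replicate 2, 21 with overexpressed HoxC5 and 34 with Pbx4, against a median local background of 2.64, 3.44, 2.73 and 3.64 reads. These read numbers were solved from the fold enrichment and p-value of each peak, which worked for 100% of peaks in replicate 1 and overexpressed HoxC5, 95.3% in replicate 2 and 93.9% in the Pbx4 list.

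Endogenous HoxC5 had 5 sites at these genes: 2 at *TGFB2* and 1 each at *TGFBR2*, *TGFBR1* and *ENG*. Their sequences are shown because they carry all the endogenous binding found at the 8 genes, and the strongest HoxC5 peak at a promoter, that of *TGFB3*, is added for comparison. The reference letters are from the GRCh37 plus strand (the coordinates of hg19), and capitals mark words that Hox, Meis or AP-1 proteins are known to bind. Bases annotated as untranslated exon were left out, so only a stretch of the *TGFBR1* and *ENG* peaks is printed.
TGFB2 first site, both replicates, chr1:218550755-218550965: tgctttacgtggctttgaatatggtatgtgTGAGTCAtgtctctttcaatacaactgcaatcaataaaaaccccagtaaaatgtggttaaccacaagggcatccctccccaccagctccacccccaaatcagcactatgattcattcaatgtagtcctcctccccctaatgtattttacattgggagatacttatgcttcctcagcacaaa
TGFB2 second site, replicate 2, chr1:218553914-218554050: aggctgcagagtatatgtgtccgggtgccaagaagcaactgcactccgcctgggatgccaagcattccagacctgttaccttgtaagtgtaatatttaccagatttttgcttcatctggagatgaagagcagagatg
TGFBR2 distal site, replicate 1, chr3:30779416-30779586: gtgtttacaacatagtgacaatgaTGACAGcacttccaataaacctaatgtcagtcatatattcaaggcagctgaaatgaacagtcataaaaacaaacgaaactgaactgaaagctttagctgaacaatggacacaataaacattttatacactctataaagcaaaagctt
TGFBR1 distal site, replicate 1, part, chr9:101984225-101984345: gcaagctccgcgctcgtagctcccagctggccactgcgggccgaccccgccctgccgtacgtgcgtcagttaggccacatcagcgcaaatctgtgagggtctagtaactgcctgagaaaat
ENG distal site, replicate 1, part, chr9:130533718-130533816: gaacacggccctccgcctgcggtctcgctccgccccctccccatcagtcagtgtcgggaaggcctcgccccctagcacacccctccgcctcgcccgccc
TGFB3 promoter, overexpressed HoxC5, chr14:76448728-76449015: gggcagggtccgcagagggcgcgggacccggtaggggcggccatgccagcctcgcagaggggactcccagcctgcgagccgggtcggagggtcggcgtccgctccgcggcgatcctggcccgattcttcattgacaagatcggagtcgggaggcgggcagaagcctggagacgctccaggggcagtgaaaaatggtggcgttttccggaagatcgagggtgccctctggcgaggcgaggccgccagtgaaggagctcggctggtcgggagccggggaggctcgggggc
The GC content was 42.7% and 47.4% at the *TGFB2* sites and 33.3% at the *TGFBR2* site, against 62.0% at the *TGFBR1* stretch, 74.7% at the *ENG* stretch and 70.8% at the *TGFB3* promoter. The first *TGFB2* site held 1 AP-1 word (TGAGTCA), and the *TGFBR2* site held 1 Meis word (TGACAG). The other 4 sequences held no word of those sought.

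**Figure D1:**
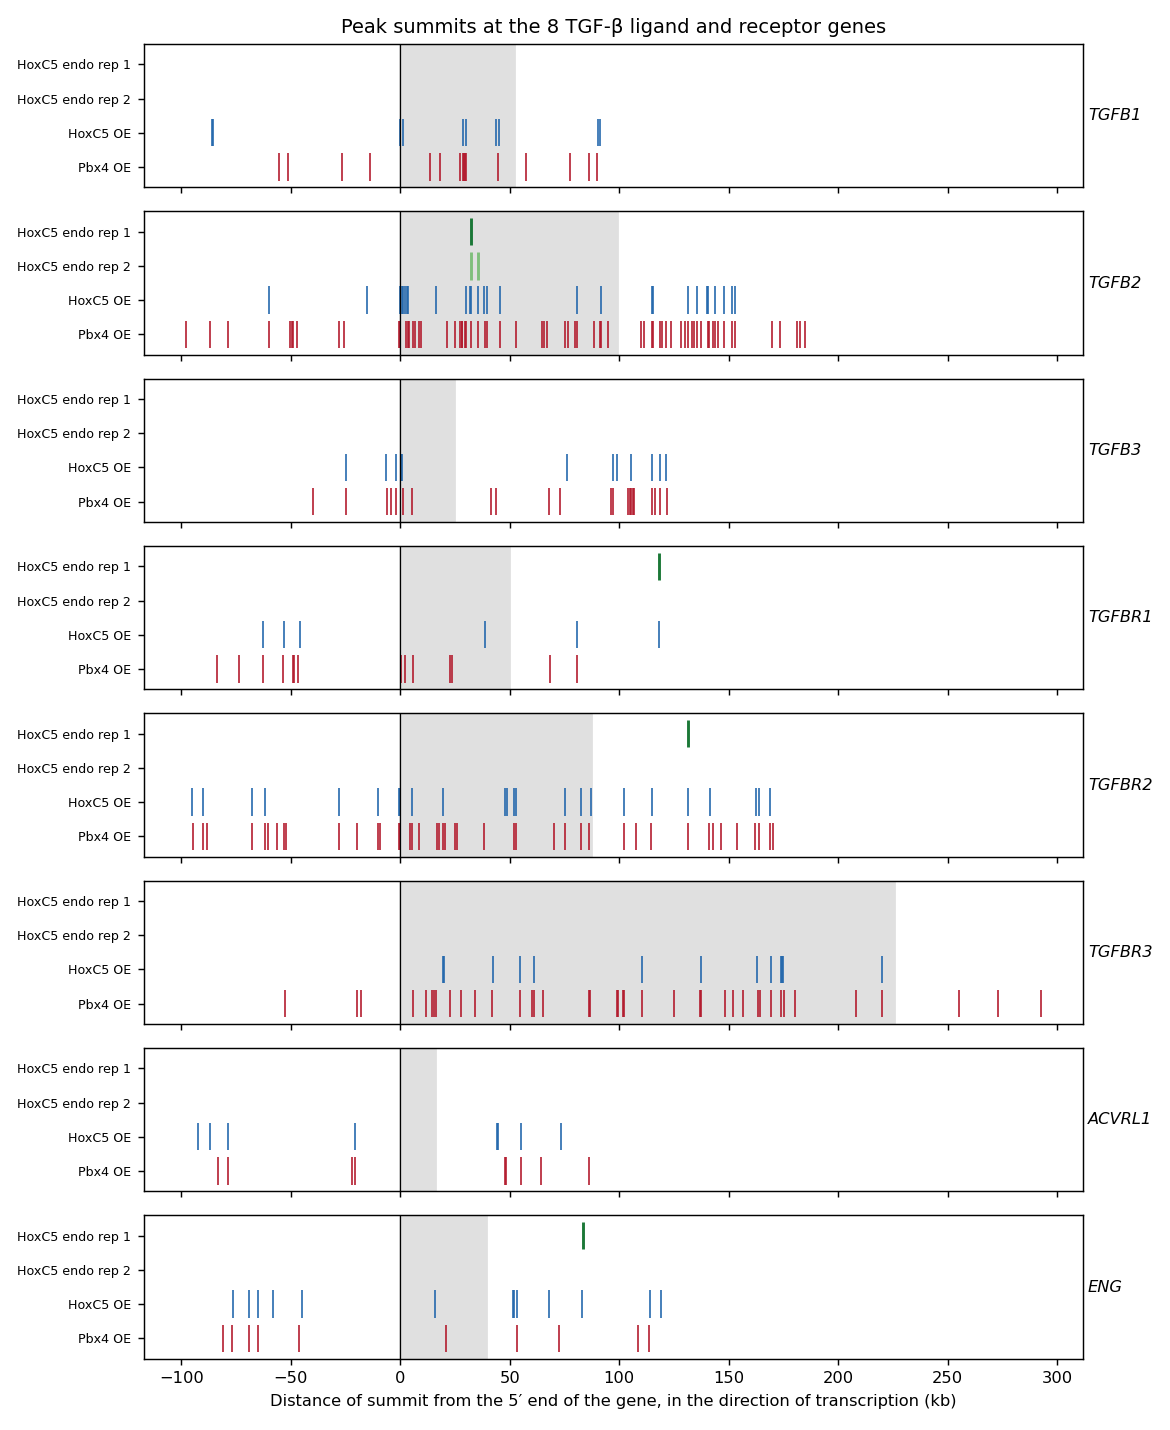
Position of every peak summit at the 8 genes. The x axis is the distance in kb from the 5′ end of the gene in the direction of transcription, the grey block is the gene body, and the rows are the 4 libraries (endo, endogenous; OE, overexpressed). Endogenous HoxC5 marks stand at 4 genes, and only at *TGFB2* do both replicates have one.

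Of the 8 genes, 4 had a peak in replicate 1, against 26.3% of protein-coding genes. In replicate 2, *TGFB2* alone had one, against 2.36%. *TGFB2* was thus the 1 gene of 8 with peaks in both replicates, which 2.2% of protein-coding genes had, and 4 of 8 had a peak in either replicate, against 26.5%. With 8 genes and so few peaks, these counts are a description. In both overexpressed lists all 8 genes had peaks, but so did 92.8% of protein-coding genes for HoxC5 and 96.2% for Pbx4, and having a peak there does not set the 8 genes apart. The number of peaks varied more. The overexpressed HoxC5 list had 114 peaks at the 8 genes (median 12.5 per gene, against 8 over all protein-coding genes), and the Pbx4 list had 225 (median 19, against 14). Per 100 kb, pooled over the 8 windows, this was 5.48 HoxC5 and 10.8 Pbx4 peaks. Pooled over the whole assembled genome, which includes regions far from genes, it was 2.35 and 5.37. The median density of single protein-coding genes, an unlike measure, was 3.28 and 6.04, and 7 of the 8 genes exceeded it for HoxC5 and 5 for Pbx4. Without *TGFB2* the pooled densities were 4.80 and 8.60.

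Among the ligands, *TGFB2* encodes the one that needs betaglycan for efficient receptor binding. The first site lay in an intron of *TGFB2*, 30.5 kb downstream of the nearest *TGFB2* TSS. Its fold enrichment over local background was 4.24 in replicate 1 (33 reads at the summit), 6.48 in replicate 2 (44 reads), 13.8 in the overexpressed HoxC5 library (102 reads) and 15.1 in the Pbx4 library. It was the only site of the 262 at the 8 genes that stood in all 4 lists. In replicate 1 this peak was not a strong one by fold, standing 73.2% down the list, but by q-value it was in the top 22.1%. In the overexpressed HoxC5 list it was the highest of *TGFB2* and in the top 3.73%, and in the Pbx4 list in the top 3.93%. The second site, 33.6 kb from the TSS and also intronic, was called in replicate 2 (fold 5.42, 34 reads), with overexpressed HoxC5 (12.7) and with Pbx4 (13.5), but not in replicate 1.

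Around these sites *TGFB2* was densely occupied in the overexpressed libraries. It had 28 overexpressed HoxC5 peaks, a number reached by 1.51% of protein-coding genes, and 71 Pbx4 peaks, reached by 0.536%. Per 100 kb of window it had 24.6 Pbx4 peaks, and 12 of all 20136 protein-coding genes had as many or more. For HoxC5 the density was less extreme, with 9.70 peaks per 100 kb, reached by 693 genes (3.44%). Of the 71 Pbx4 peaks, 31 lay in the body of the gene and 34 between genes. The Pbx4 peak of highest fold (20.8, 193 reads) was 42.4 kb from the nearest *TGFB2* TSS, beyond the 3′ end of the gene, and was shared with overexpressed HoxC5. At the promoter, within 1 kb of a TSS, 4 HoxC5 peaks of fold 2.57 to 5.69 were called, below the list median of 6.17, whereas the strongest Pbx4 peak there had a fold of 9.77 (158 reads). The local background at *TGFB2* was also high. It exceeded the list median in 26 of 28 overexpressed HoxC5 peaks and 71 of 71 Pbx4 peaks, with medians of 1.84 and 2.05 times the list median. In the endogenous lists it was 7.03 reads at the replicate 1 peak, and 5.33 and 4.87 reads at the replicate 2 peaks. The part of this background in the number of peaks was not tested. With peaks of fold 5 or more only, *TGFB2* kept 17 overexpressed HoxC5 and 44 Pbx4 peaks, numbers reached by 3.46% and 0.929% of protein-coding genes. Per 100 kb, these densities were reached by 6.21% and 0.273%. At this limit *TGFB2* kept its replicate 2 peaks but lost its replicate 1 peak (fold 4.24).

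*TGFB3* encodes a ligand best known from palate fusion and wound repair. It had no endogenous HoxC5 peak, 12 overexpressed HoxC5 peaks (reached by 28.3% of protein-coding genes) and 22 Pbx4 peaks (25.6%). Its strongest overexpressed HoxC5 peak was at the promoter, 289 bp downstream of a TSS (fold 13.7, 40 reads, top 3.90% of the list), and no Pbx4 peak overlapped it. A weaker pair lay beside it, with HoxC5 at 46 bp upstream of another TSS (fold 5.33) and Pbx4 at 3 bp downstream of it (fold 4.39). Most other peaks of the window lay in neighbouring genes, 10 of the 12 for HoxC5 and 20 of the 22 for Pbx4. The strongest Pbx4 peak (fold 15.2) was in an intron of *TTLL5*, 92.9 kb from the nearest *TGFB3* TSS. Local background was above the list median in 20 of 22 Pbx4 peaks but in 5 of 12 HoxC5 peaks.

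*TGFB1*, the most widely expressed ligand, had no endogenous peak, 10 overexpressed HoxC5 peaks (reached by 38.6% of protein-coding genes) and 16 Pbx4 peaks (reached by 44.3%). It had 2 HoxC5 peaks at the promoter, both weak (fold 4.02 and 4.37), and no Pbx4 peak there. Its strongest peaks were intronic, with HoxC5 at a fold of 11.4 and Pbx4 at 10.1. Its window held TSSs of 10 other protein-coding genes, so that most of its peaks were nearer to another gene's TSS: 2 of the 10 HoxC5 and 2 of the 16 Pbx4 peaks had a *TGFB1* TSS as the nearest.

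Among the signalling receptors, *TGFBR2*, the type II receptor of the ligands, was the next most densely occupied gene. It had 24 overexpressed HoxC5 peaks (reached by 3.40% of protein-coding genes) and 43 Pbx4 peaks (3.21%). Its local background was close to the list median, 1.09 times for HoxC5 and 1.15 times for Pbx4. The endogenous site was weak, with a fold of 3.52 and 18 reads in replicate 1 and no peak in replicate 2, and stood 89.6% down the list by fold. It lay 56.9 kb from the nearest *TGFBR2* TSS in an intron of *GADL1*, the TSS of which was nearer (41.0 kb), and was shared with overexpressed HoxC5 (fold 5.88) and Pbx4 (9.18). At the promoter, overexpressed HoxC5 had a summit 9 bp downstream of the 5′ TSS (fold 9.81, 38 reads), and the overlapping Pbx4 peak had its summit 177 bp upstream of it (fold 7.61, 95 reads). A second Pbx4 peak within 1 kb of an internal TSS was stronger (fold 18.8), with no HoxC5 peak over it. The strongest peaks of the window were distal, with HoxC5 at 94.0 kb in *GADL1* (fold 13.8) and Pbx4 at 61.7 kb upstream (fold 20.4).

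*TGFBR1*, the type I receptor, was the least occupied by overexpressed HoxC5, with 6 peaks (reached by 64.5% of protein-coding genes). None lay within 1 kb of its TSSs, the nearest being 4.32 kb away. The Pbx4 list had 14 peaks (reached by 52.2%), of which 3 were at a promoter, the strongest 16 bp upstream of an internal TSS (fold 9.95, 43 reads) and another 77 bp downstream of the 5′ end of the gene (fold 6.35). The endogenous peak counted for *TGFBR1* (fold 4.50, 8 reads, replicate 1 only) was 75.3 kb from its nearest TSS and 20 bp from that of *SEC61B*, a translocon subunit gene. Overexpressed HoxC5 bound there too (fold 5.61), and Pbx4 had no peak. The strongest peaks in both overexpressed libraries lay in introns of the neighbour *COL15A1*.

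*ACVRL1*, the endothelial type I receptor, had no endogenous peak and no peak of either protein in its body. Its 8 overexpressed HoxC5 peaks (reached by 51.2% of protein-coding genes) and 9 Pbx4 peaks (72.9%) were all outside the gene. The nearest was also the strongest in both lists, 20.8 kb upstream, with a fold of 7.95 for HoxC5 and 18.4 for Pbx4. That site lay nearer to the TSS of *ANKRD33* (1936 bp for the HoxC5 summit) than to that of *ACVRL1*.

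Of the co-receptors, *TGFBR3* had no endogenous peak, 13 overexpressed HoxC5 peaks (reached by 23.9% of protein-coding genes) and 40 Pbx4 peaks (4.16%). All 13 HoxC5 peaks and 34 of the 40 Pbx4 peaks lay in the body of the gene, the longest of the 8 (226 kb). The HoxC5 density was therefore close to the median gene (3.30 per 100 kb) and the Pbx4 density above it (10.2). Overexpressed HoxC5 had 2 peaks near an internal TSS, the stronger 26 bp upstream (fold 9.97, 28 reads), where Pbx4 had none. The Pbx4 peak with the highest fold at any of the 8 genes (22.2, 87 reads, top 0.280% of its list) lay 61.4 kb from the nearest *TGFBR3* TSS, between genes, and was not shared with HoxC5.

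*ENG* had the strongest overexpressed HoxC5 peak of the 8 genes, with a fold of 29.4 (83 reads), in the top 0.104% of the list. The same site was an endogenous replicate 1 peak (fold 5.50, 10 reads), and Pbx4 had no peak on it. It is not at the *ENG* promoter: it lay 52.9 kb from the nearest *ENG* TSS, in *SH2D3C*, with the HoxC5 summit 43 bp from a TSS of that gene. Within the *ENG* body 1 of its 13 HoxC5 and 1 of its 10 Pbx4 peaks were found, with folds of 4.02 and 5.46, and none lay within 1 kb of a TSS. The window of *ENG* held TSSs of 11 other protein-coding genes. *ENG* was the only gene of the 8 with more HoxC5 peaks (13, reached by 23.9% of protein-coding genes) than Pbx4 peaks (10, reached by 68.9%).

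Across the 8 genes, overexpressed HoxC5 peaks lay within 1 kb of a TSS at 5 genes (*TGFB1*, *TGFB2*, *TGFB3*, *TGFBR2* and *TGFBR3*), against 55% of protein-coding genes. Pbx4 peaks lay there at 4 (*TGFB2*, *TGFB3*, *TGFBR1* and *TGFBR2*), against 42%. Both shares are near those of all genes. Most binding was distal, with a median distance to the nearest TSS of the gene of 29.9 kb for the 114 HoxC5 peaks and 29.4 kb for the 225 Pbx4 peaks. These distances depend on the rule, which admits summits up to 100 kb from a TSS. No distance over all genes is set beside them, so they do not set the 8 genes apart. By fold the peaks were ordinary for their lists, with 51 of 114 and 116 of 225 above the list median.

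Overlap of HoxC5 with Pbx4 at the 8 genes was also near that of the whole lists. A Pbx4 peak overlapped 76 of the 114 overexpressed HoxC5 peaks by at least 1 bp (66.7%, exact 95% Clopper-Pearson limits 57.2 and 75.2%, counting error only), against 67.7% of the whole list. Of the 225 Pbx4 peaks, 74 (32.9%, 26.8 to 39.4%) overlapped a HoxC5 peak, against 28.5%. Overlapping summits were a median of 46 bp apart, and 43 of 76 pairs (56.6%) within 50 bp, against 50 bp and 50.3% for the lists. Pbx4 peaks that overlapped HoxC5 had a higher median fold (9.34) than those that did not (5.72), as in the whole list (8.23 and 5.89). Between genes the share varied. At *TGFB2* 24 of 28 and at *TGFBR2* 21 of 24 HoxC5 peaks were also Pbx4 peaks, whereas it was 3 of 10 at *TGFB1*, 3 of 8 at *ACVRL1* and 4 of 13 at *ENG*. The other genes lay between, with 9 of 12 at *TGFB3*, 9 of 13 at *TGFBR3* and 3 of 6 at *TGFBR1*. Pbx4 peaks themselves were denser at *TGFB2* and *TGFBR2* (24.6 and 15.7 per 100 kb) than at *TGFB1*, *ACVRL1* and *ENG* (7.55, 4.19 and 4.34). They were 9.91, 10.2 and 5.77 per 100 kb at *TGFB3*, *TGFBR3* and *TGFBR1*. The part of this density in the shares was not tested.

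All 5 endogenous sites were also overexpressed HoxC5 peaks, and 3 of them were Pbx4 peaks, those of *TGFB2* and *TGFBR2*. Where each peak had to cover 50% of the other, the shares were 60% with HoxC5 and 0% with Pbx4. The endogenous peaks were too short to cover 50% of the Pbx4 peaks over them, so that 0% was fixed by peak width. At *TGFB2* the endogenous sites were 211 and 137 bp long, against Pbx4 peaks of 953 and 927 bp. With summits within 100 bp the shares were 100% with HoxC5 and 60% with Pbx4. The 2 without Pbx4, counted for *TGFBR1* and *ENG*, were those at promoters of *SEC61B* and *SH2D3C*. In the whole lists 76.4% of replicate 1 peaks overlapped overexpressed HoxC5 and 70.8% Pbx4, so 4 of 4 and 2 of 4 at these genes are too few for a comparison.

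Words were counted within 50 bp of each summit on either strand. The AP-1 word (TGACTCA or TGAGTCA) stood at 22 of 114 overexpressed HoxC5 summits (19.3%, against 20.5% of the list) and 38 of 225 Pbx4 summits (16.9%, against 18.5%). The Hox-Pbx word TGATTGAT was at none of the summits and TGATTAAT at 1 HoxC5 and 2 Pbx4 summits, words that were rare in the lists as well (0.469 to 0.807%). The Meis word TGACAG was at 10 HoxC5 summits (8.77%, against 7.88%) and 24 Pbx4 summits (10.7%, against 10.4%). The Hox word TAATGA was at 14 HoxC5 summits (12.3%, against 8.41%) and 13 Pbx4 summits (5.78%, against 7.61%), and the Hox word TAATTA at 2 (1.75%, against 2.01%) and 6 (2.67%, against 1.96%). None of the 6 endogenous summits had a whole word within 50 bp. The AP-1 word printed in the first *TGFB2* site was not counted for these summits. It crosses the edge of the window around the replicate 2 summit and lies outside that of replicate 1. At the Pbx4 summit of the same site it was counted.

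The other genes of the pathway, 32 in number, all had HoxC5 and Pbx4 peaks in the overexpressed lists, as did 92.8% and 96.2% of protein-coding genes. In replicate 1, 14 of 32 had a peak, against 26.3% of protein-coding genes, and in replicate 2 none, against 2.36%, so that *TGFB2* was the only gene of the 8 and the 32 with a peak in replicate 2. Of the 12 genes for storage and activation of latent TGF-β, 5 had a replicate 1 peak, among them *LTBP3*, which binds the latent complex, with 3. Of the 9 receptors for activins, BMPs and AMH, 3 did (*ACVR2A*, *BMPR1B* and *AMHR2*, with 1 each). Of the 5 SMAD genes, 3 did: *SMAD2* and *SMAD3*, the signalling SMADs of TGF-β, and the inhibitor *SMAD6*, with 1 each. Among known response genes, *ID1* had 4 replicate 1 peaks and *SKIL*, a repressor of SMAD signalling, had 2, while *TGFBI*, *PMEPA1* and *CCN2* had none. The most Pbx4 peaks in this list were 57 at *LTBP1* and 54 at *SMAD3*, with 29 and 28 overexpressed HoxC5 peaks, below the Pbx4 number of *TGFB2* and near its HoxC5 number although both have longer windows (555 and 323 kb, against 289 kb). Per 100 kb, however, *LTBP3* (12.4) and *ID1* (11.5) had more overexpressed HoxC5 peaks than *TGFB2* (9.70), in shorter windows (218 and 200 kb).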

How the data were processed

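HoxC5 and Pbx4 ChIP-Seq in PC-3 cells was read from 4 peak lists, 1 per library. Single-end reads had been aligned by the authors with BWA-MEM (hg19), filtered on mapping quality and cleared of PCR duplicates in SAMtools before MACS2 peak calling (q-value of at most 0.05, as stated). The overexpressed HoxC5 list, however, held no q-value above 0.00997, while the other lists reached 0.0398 to 0.0499. The version of MACS2 and the control of each call are not given in the sources used here. Per the file layout, the deposited columns give each peak's fold enrichment (a ratio to local background), −log10 p-value, −log10 q-value, a score derived from q, and the summit offset. The lists hold no read totals, so library depth is unknown.

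Summits were assigned with the GENCODE 44 annotation lifted to GRCh37. Reads at the summit and local background were solved from fold and p-value (tolerance 0.001 in −log10 p; chosen after the lists were seen). This assumes that fold is reads plus 1 over background plus 1 and that p is a Poisson tail, and it infers a scaling of reads by 0.582 in replicate 2 and 0.550 in Pbx4; all read numbers rest on both. Assignment, overlap and the solving of reads were tested on planted or simulated peaks. Counts were set beside those of all protein-coding genes, without a test. Shares have exact Clopper-Pearson 95% intervals, for counting error only. Described in full were every endogenous peak and, per gene and overexpressed list, the peak of highest fold and that nearest to a TSS; other promoter peaks and sharing were described as well. The values of 1 gene of the pathway list are not reported here. The genes and lists were chosen with earlier results of these data known. Alternatives were other windows, filters, overlap rules and word windows, and each replicate left out. Python 3.11.15, numpy 2.4.6, pandas 2.3.3, scipy 1.17.1, pysam 0.24.0 and matplotlib 3.10.9 were used.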

Additional observations from a re-analysis of the deposited data

How the results depend on the processing

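No paired analysis was possible because the replicate numbers are shared with input libraries only, which were not used here, and no result comes from a test. Of the main counts and shares under the alternatives, 45 values moved past a set limit and 56 stayed within it (a count within 1.5 times the main count, a share within the 95% interval of the main share, a median position within the spread of the peaks), which includes smaller changes. The numbers of endogenous peaks moved most. Replicate 1 (4 peaks at 4 genes) had 1 peak at 1 gene with a window of 50 kb, with a fold of at least 5 or where the nearest protein-coding TSS had to be that of the gene, 2 peaks at 2 genes at a q-value of at most 0.001 or with only the 5′ end of the gene, and 0 peaks at 0 genes within 10 kb with the gene body left out. Replicate 2 (2 peaks at 1 gene) had 0 peaks at 0 genes in the last case. The 1 gene kept in replicate 1 was *TGFB2* with 50 kb or the nearest TSS, but *ENG* (fold 5.50) with the fold limit. The *TGFB2* peak of replicate 1 (fold 4.24) fell below that limit, where none of the 8 genes had peaks in both replicates. Both replicates merged (5 peaks at 4 genes) gave 2 peaks at 1 gene with 50 kb or the nearest TSS, 3 peaks at 2 genes with the fold limit, the q limit or only the 5′ end, and 0 at 0 within 10 kb. With 1 replicate left out they gave 2 to 4 peaks at 1 to 4 genes, and their share in the Pbx4 list was 50% to 100%.

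Overexpressed HoxC5 (114 peaks) had 73 with 50 kb, 31 within 10 kb and 65 by nearest TSS, and Pbx4 (225) had 59 within 10 kb and 149 by nearest TSS. The share of HoxC5 peaks in Pbx4 (66.7%) was 51.2% with a fold of at least 5, 47.4% with summits within 100 bp, 28.9% with 50% reciprocal overlap and 57.0% with the Pbx4 list shortened to the length of the HoxC5 list. The reverse share (32.9%) was 25.8%, 24.0%, 14.7% and 52.1%, and with reciprocal overlap the share of merged endogenous peaks was 0% in Pbx4 (from 60%) and 60% in overexpressed HoxC5 (from 100%). That 0% was fixed by the width of the Pbx4 peaks, and with summits within 100 bp the endogenous shares stayed at 60% and 100%. With 100 bp on either side, the AP-1 word was at 30.7% of HoxC5 and 29.3% of Pbx4 summits. The causes of these changes were not tested beyond the narrower or wider rules themselves. At *TGFB2* the smallest numbers were 8 HoxC5 and 15 Pbx4 peaks, within 10 kb without the body. A q-value limit of 0.01 in every list, chosen after seeing the data, moved no value past the limit, with 224 Pbx4 peaks. For overexpressed HoxC5 this was fixed in advance, since its list held no q-value above 0.00997 and its 114 peaks could not change. The replicate 1 peaks at *TGFBR1* and *ENG* rest on 8 and 10 reads at the summit.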
